A study of Mus musculus with 8 samples.

Results

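On chromosomes 2 to 13 and 15 to 19, 6168 of the 22484 Brdt islands of wild-type spermatocytes shared at least 1 base with a Brdt island of wild-type round spermatids and no base with any island of either BD1del list. They made up 27.4% of those 22484 islands (exact 95% binomial interval 26.9 to 28.0%). An island is a run of windows rich in ChIP reads, joined over short gaps. Its ChIP reads as a whole exceeded those of a control library after scaling to library size. These 6168 islands, called wild-type-only islands here, were chosen by the island calls of all 4 lists. Their presence in both wild-type lists and their absence from both BD1del lists are therefore no finding. The whole wild-type spermatocyte list held 36615 islands, and the 4 lists together held 426082.

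Brdt belongs to the BET proteins and is made in the testis. Its bromodomains bind acetylated lysines of histones, and the first bromodomain binds acetylated histone H4 tails. Spermatocytes are the cells in meiosis, and round spermatids are the haploid cells that follow and later replace most of their histones when they condense.

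Anti-Brdt ChIP-seq was done on round spermatids and spermatocytes from mice carrying Brdt BD1del, an allele without the first bromodomain, and from wild-type C57BL/6 mice. The 8 samples were 4 ChIP and 4 input libraries, 1 of each per stage and genotype. Cells came from pooled fractions of a BSA gradient, so a library stands for a pool of cells and not for a mouse. For wild type, 10 mice were pooled per fractionation, the chromatin was cut with MNase, and each ChIP took 0.6 µg of antibody and 500 µg of chromatin. The sources used here do not give strain, pool size or chromatin preparation for BD1del. Purity of the fractions could not be checked with island lists, which hold no expression values, so another mix of cells and other binding per cell cannot be told apart.

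On the 17 chromosomes the lists held 163246 islands for BD1del round spermatids, 88738 for BD1del spermatocytes, 55299 for wild-type round spermatids and 22484 for wild-type spermatocytes. ChIP libraries were smaller than their controls, with size ratios of 0.184, 0.177, 0.264 and 0.559 in the same order of lists. The BD1del lists came from paired F3 and F5 tags and the wild-type lists from F3 tags of pairs, so genotype and read set cannot be told apart. Each group had 1 library. All differences below therefore set libraries side by side without a test, and intervals stand for counting error alone, because adjacent islands and reads depend on each other.

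The 2 conditions of the rule can be read separately. Of the 22484 wild-type spermatocyte islands, 12297 met a wild-type round spermatid island (54.7%) and 12545 met no BD1del island (55.8%). Of the islands that both wild-type stages held, 50.2% met no BD1del island (49.3 to 51.0%), against 62.6% of the islands that met no wild-type round spermatid island (61.7 to 63.5%). A gap of the same direction stood at the moved positions described next, where 56.4% of islands that met a round spermatid island and 70.7% of those that did not met no BD1del island. The other islands of both wild-type stages met 1 BD1del list in 3688 cases and both in 2441. Among those 3688, 2455 met the BD1del round spermatid list and 1233 the BD1del spermatocyte list. Spermatocyte islands that met none of the other lists numbered 6377.

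To set these counts beside the local density of islands, the spermatocyte islands were moved by 10 to 500 kb in either direction 100 times, each island by its own distance. As called, 6168 islands met the rule, against a mean of 1406 after the moves (range 1297 to 1522), a ratio of 4.39. The 2 conditions differed from the moved islands in opposite directions. A wild-type round spermatid island was met by 54.7% of the islands as called and by 11.1% after the moves (10.5 to 11.7%), a ratio of 4.93. No BD1del island was met by 55.8% as called and by 69.1% after the moves (68.4 to 70.0%), a ratio of 0.807. The count above the moved count thus came with overlap between the wild-type stages, while freedom from BD1del islands was less frequent than at moved positions. This held both for islands that met a round spermatid island, with 50.2% as called and 56.4% after the moves (54.1 to 59.3%), and for those that did not, with 62.6% as called and 70.7% after the moves (70.0 to 71.5%). Islands of all 4 lists stood further above their moved count, with 10.9% as called and 1.32% after the moves, a ratio of 8.24.

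The ratio to the moved count was larger for short islands. Islands of 200 to 800 bases met the rule in 29.8% of cases as called and 4.12% after the moves, a ratio of 7.22. For islands of 4000 bases or more the shares were 26.1% as called and 8.37% after the moves, a ratio of 3.12. The called share changed little with length, whereas moved islands met the rule more often the longer they were. Its 2 conditions did change. A round spermatid island was met by 56.5% of the shortest islands and 65.8% of the longest, with 50.2 and 51.6% in between. No BD1del island was met by 59.4% of the shortest and 44.0% of the longest.

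**Figure D1:**
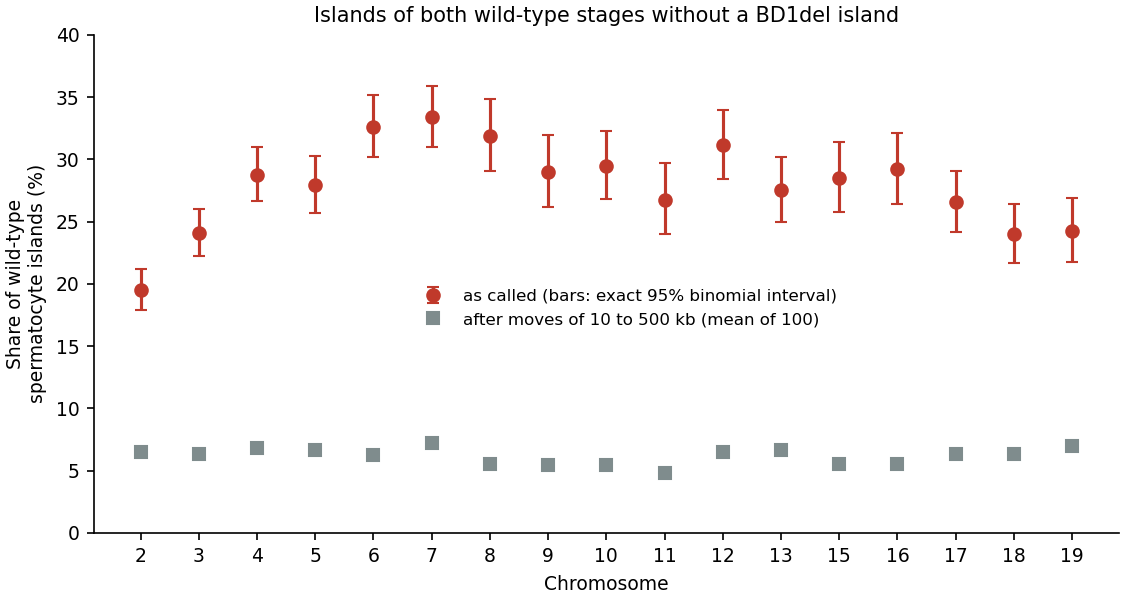
Share of wild-type spermatocyte islands on each chromosome that met a wild-type round spermatid island and no BD1del island, as called (circles, with exact 95% binomial intervals) and as the mean of 100 moves (squares). The called share lay between 19.5% on chromosome 2 and 33.4% on chromosome 7, above the moved share on each of the 17 chromosomes.

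Among chromosomes, the share of wild-type-only islands was lowest on chromosome 2, at 19.5% (17.9 to 21.2%), and highest on chromosome 7, at 33.4% (31.0 to 35.9%), with a median of 28.5%. The plot by chromosome shows that chromosome 2 stood below the others beyond its counting interval. Chromosome 2 had the highest share of islands that met a wild-type round spermatid island, 62.0%, and the lowest share that met no BD1del island, 39.7%. Its low share therefore came with BD1del islands and not with a lack of round spermatid islands. Chromosome 8 had the highest share that met no BD1del island, 67.5%, and also the fewest BD1del islands per Mb, 106 against a highest value of 135 on chromosome 11. On chromosome 11, however, the share that met no BD1del island was 59.3%, near the median of 59.0% over chromosomes. The ratio to the moved count ran between 3.02 on chromosome 2 (450 islands as called, 149 after the moves) and 5.73 on chromosome 8 (329 as called, 57.4 after the moves). The density of wild-type-only islands ran between 2.16 per Mb on chromosome 11 and 4.53 per Mb on chromosome 19, the chromosome with most spermatocyte islands per Mb. Their median spermatocyte fold per chromosome was within 1.65 and 1.83, a narrow range beside the spread among islands.

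In size, the wild-type-only islands were typical of their list. Their median length was 2000 bases (quartiles 1000 and 3200), the same median as for all 22484 islands, and 235 of them (3.81%) were 1 window of 200 bases, against 3.26% of all. They covered 14.6 Mb, 26.0% of the 56.1 Mb under all spermatocyte islands. Their 6307 partner islands in round spermatids covered 12.6 Mb, and the bases that both stages shared came to 8.88 Mb. That was 70.6% of the partners' bases and 60.9% of the wild-type-only islands' bases.

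The overlap was broad for most islands. An island shared a median of 1200 bases with its partners, 72.7% of its own length (quartiles 45.5 and 100%). Of the 6168, 5958 had 1 partner, 2005 lay wholly inside a round spermatid island, and 498 had the same start and end in both stages. At the other extreme, 631 islands (10.2%) shared only 1 window of 200 bases with their partners. Seen from round spermatids, 6643 of the 55299 islands (12.0%) met a wild-type spermatocyte island and no BD1del island. The rule did not look at the rest of a partner island: 366 of the 6307 partners (5.80%) met a BD1del island outside the wild-type-only island, and 5801 islands had only partners free of BD1del islands.

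The deposited fold, the ratio of ChIP reads to control reads scaled by library size, was low for most of these islands in both stages. Partner islands in round spermatids had a median fold of 2.15 per wild-type-only island (quartiles 1.80 and 2.75), from a median of 48 ChIP and 84 control reads. The spermatocyte islands had a median fold of 1.73 (quartiles 1.50 and 2.13), from a median of 83 ChIP and 85 control reads. Fewer of them reached a high fold than in their whole lists. In round spermatids 3819 of the 6307 partners (60.6%) had a fold of at least 2, against 80.7% of all islands of the list. In spermatocytes 1878 of the 6168 (30.4%) did, against 36.0% of all. Among the other islands of both wild-type stages, 36.1% with 1 BD1del list and 24.0% of all 4 lists did. Their median folds in round spermatids were 2.21 and 2.12. The low fold was thus not particular to the wild-type-only islands. A deposited FDR of at most 1e-10 was reached by 1322 of the 6168 spermatocyte islands (21.4%), against 26.9% of all. The background for the choice itself was 27.4%, the share of spermatocyte islands that met the rule, from which nothing is read.

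**Figure D2:**
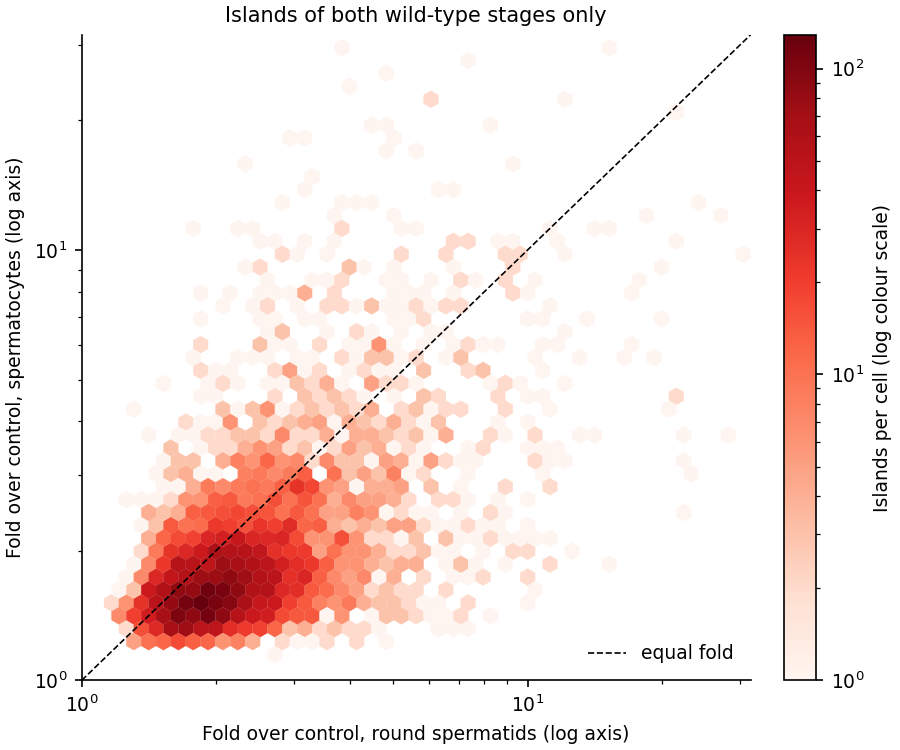
Fold over control of the wild-type-only islands in round spermatids (horizontal log axis) and in spermatocytes (vertical log axis); colour gives the number of islands per cell on a log scale and the dashed line marks equal fold. Most islands sat low in both, at medians of 2.15 in round spermatids and 1.73 in spermatocytes, and 15 islands with a fold beyond 31.6 lie outside the axes.

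The fold was higher in round spermatids than in spermatocytes for 4685 of the 6168 islands, 76.0% (74.9 to 77.0%), against 77.2% of all 12297 islands of both wild-type stages. The share was thus near that of the islands it was drawn from. Summed over the islands, the fold was 2.12 in round spermatids and 1.72 in spermatocytes. The median ratio of the 2 folds was 1.21 (quartiles 1.01 and 1.46). At least 2 times the fold in round spermatids was held by 411 islands (6.66%), and at most 0.5 times by 127 (2.06%). The 5th and 95th percentiles of the ratio were 0.706 and 2.18, near the 0.699 and 2.20 of all 12297 islands of both wild-type stages. A list's fold depends on which islands could be called at its depth, and the control to ChIP library ratio was 3.79 in round spermatids and 1.79 in spermatocytes; the part of this in the difference was not tested.

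The folds of both stages were related across the 6168 islands, with a Spearman rho of 0.496, as a description of points that share their position, length and local read density. Control reads per kb of the overlapping islands had a rho of 0.690. In islands with 1 BD1del list and in islands of all 4 lists, rho was 0.587 and 0.552 for the folds. For control reads per kb it was 0.679 and 0.738 there. The 2 control counts were thus more alike in rank than the 2 folds. Islands of low spermatocyte fold nearly all had a higher fold in round spermatids, and islands of high spermatocyte fold mostly did not. Of 1511 islands below a spermatocyte fold of 1.5, 94.7% had the higher fold in round spermatids, with a median partner fold of 1.86. Of 261 islands at a spermatocyte fold of 5 or more, 23.4% did, with a median partner fold of 4.78. Those 261 were short, with a median of 600 bases, and had a median of 12 control reads, while the 1511 had a median of 3400 bases. Part of such a pattern follows from sorting the islands on 1 of the 2 values compared.

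A share of the spermatocyte list met the rule at every fold, but fewer islands did at a high fold. The share was 27.3% below a fold of 1.5, 31.4% between 1.5 and 2, 27.2% between 2 and 3, 20.1% between 3 and 5, and 16.0% at 5 or more. Overlap with round spermatid islands was 34.6% at a fold of 5 or more, against 60.5% between 1.5 and 2. The share that met no BD1del island stayed within 52.5 and 58.0% over the bins. The fewer wild-type-only islands at high fold thus came with fewer round spermatid islands there.

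**Figure D3:**
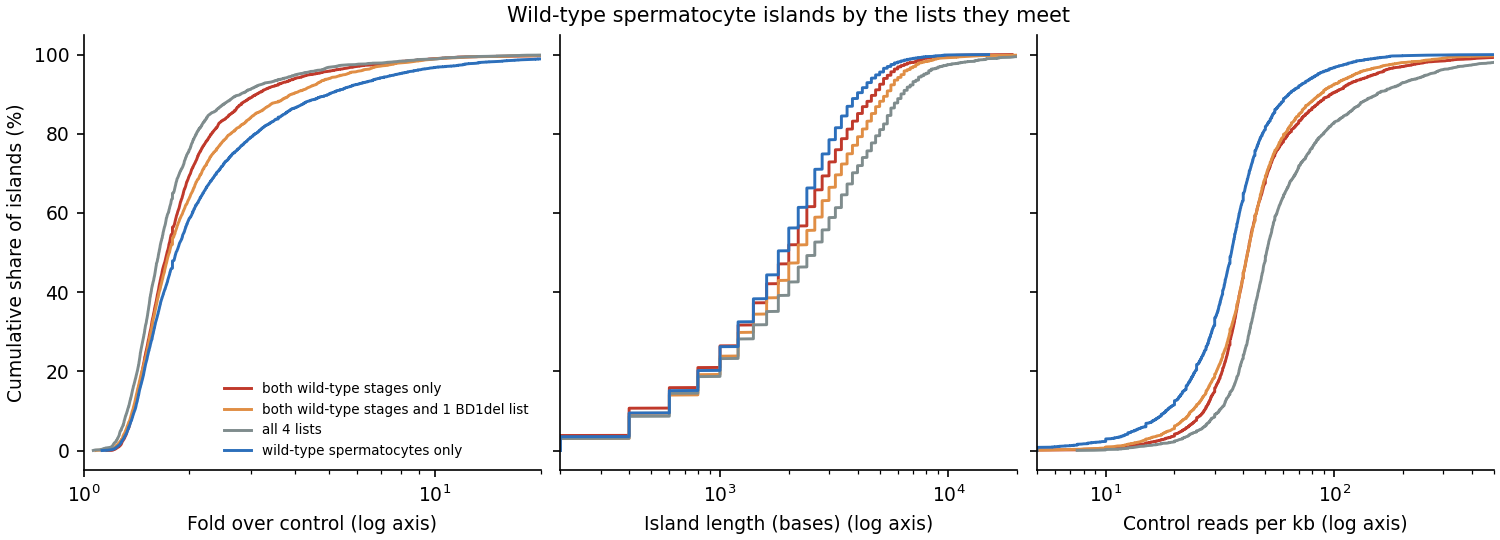
Cumulative share of wild-type spermatocyte islands by fold over control, by length and by control reads per kb (log axes), for wild-type-only islands, islands of both wild-type stages with 1 BD1del list, islands of all 4 lists and islands of spermatocytes only. The wild-type-only islands lay between the islands of all 4 lists and the spermatocyte-only islands in fold and in length, with median folds of 1.73, 1.64 and 1.83 and median lengths of 2000, 2600 and 1800 bases for these 3 classes.

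Set beside the other classes of spermatocyte islands, the wild-type-only islands were intermediate in fold. Their median fold was 1.73, with 1.75 for islands of both wild-type stages and 1 BD1del list, 1.64 for islands of all 4 lists and 1.83 for islands of spermatocytes only. A fold of at least 3 was held by 10.9% of the wild-type-only islands, against 15.8, 8.64 and 20.8% of those 3 classes in the same order. The remaining class, 3810 islands that met a BD1del list but no round spermatid island, had a median fold of 1.84. In that class 23.1% had a fold of at least 3. The classes without a round spermatid partner thus had higher median folds than the classes with one. A fold of at least 3 in both stages was held by 455 wild-type-only islands (7.38%), against 8.70% of all islands of both wild-type stages. Islands with over 100 control reads per kb numbered 586 among the wild-type-only islands (9.50%), against 7.29% of all spermatocyte islands and 17.1% of the islands of all 4 lists. The median fold in round spermatids was close in the classes that have partners, at 2.15 for wild-type-only islands, 2.21 with 1 BD1del list and 2.12 for all 4 lists.

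The wild-type-only islands of highest spermatocyte fold, among those with at least 10 control reads in each stage, reached folds above 10. On chromosome 2 (118872401 to 118873600, mm9) there were 49 ChIP and 27 control reads in round spermatids, a fold of 6.87 (4.21 to 11.4), and 93 ChIP and 12 control reads in spermatocytes, a fold of 13.9 (7.57 to 27.8). This island touched a BD1del round spermatid island without sharing a base, and the nearest BD1del spermatocyte island lay 6600 bases away. It is thus also among the islands nearest to the limit of the rule. On chromosome 9 (103459001 to 103460000) the fold was 6.15 in round spermatids, from 26 ChIP and 16 control reads, and 13.8 in spermatocytes, from 77 ChIP and 10 control reads. On chromosome 3 (19527601 to 19529200) it was 3.79 in round spermatids, from 33 ChIP and 33 control reads, and 10.8 in spermatocytes, from 115 ChIP and 19 control reads. That island lay 15200 bases from the nearest island of either BD1del list, the farthest among the 6 of highest spermatocyte fold. On chromosome 11 (66619601 to 66620000) the stages differed most among these 6, with a fold of 2.73 in round spermatids (54 ChIP and 75 control reads over 2600 bases) and 10.9 in spermatocytes (61 ChIP and 10 control reads over 400 bases). The sixth, on chromosome 3 (110525201 to 110525600), had folds of 7.58 in round spermatids and 10.7 in spermatocytes.

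One island was among the 6 of highest fold in both stages. It lay on chromosome 8 (48173801 to 48175200) and had 103 ChIP and 21 control reads in round spermatids, a fold of 18.6 (11.5 to 31.3), and 216 ChIP and 33 control reads in spermatocytes, a fold of 11.7 (8.09 to 17.4). The stages shared 400 of its 1400 bases, and BD1del islands lay 4200 bases away in round spermatids and 1400 in spermatocytes. The highest round spermatid fold was on chromosome 5 (15882801 to 15884200), with 113 ChIP and 21 control reads in round spermatids, a fold of 20.4 (12.7 to 34.2), and 77 ChIP and 20 control reads in spermatocytes, a fold of 6.89 (4.17 to 11.9). All its 1400 bases lay in the partner. BD1del islands lay 4400 bases away in round spermatids and 37000 in spermatocytes. On chromosome 10 (66292801 to 66293400) the folds were 13.4 in round spermatids and 6.78 in spermatocytes, on chromosome 7 (135888001 to 135889600) they were 12.9 in round spermatids and 5.58 in spermatocytes, and on chromosome 13 (6450601 to 6452000) 12.3 in round spermatids and 5.05 in spermatocytes. On chromosome 12 (43158201 to 43159200) a round spermatid island of 1 window had a fold of 11.5, over a spermatocyte island of fold 2.87. Among these 6, the island on chromosome 13 was farthest from the nearest BD1del island, at 21000 bases.

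Long wild-type-only islands had low folds. The longest, on chromosome 4 (42437601 to 42456600), covered 19000 bases with folds of 2.02 in round spermatids (201 ChIP and 377 control reads) and 1.38 in spermatocytes (918 ChIP and 1191 control reads). A BD1del round spermatid island lay 200 bases from it, and 2 partners covered 29.5% of its length. The next was on chromosome 5 (11591001 to 11608200), with 17200 bases and folds of 1.83 in round spermatids and 1.35 in spermatocytes. Unlike the longest, it was far from BD1del islands, at 27600 bases from those of round spermatids and 45200 from those of spermatocytes. A neighbour on chromosome 5 (11413001 to 11429400) had 16400 bases and folds of 2.15 in round spermatids and 1.42 in spermatocytes. The fourth and the fifth, on chromosome 13 (66151201 to 66167200) and chromosome 4 (42479401 to 42495000), had folds of 1.59 and 1.50 in round spermatids and 1.31 and 1.38 in spermatocytes. Of the 5 longest islands, 4 thus lay in 2 regions, on chromosomes 4 and 5.

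The wild-type-only islands with most spermatocyte ChIP reads lay where the control was also dense. At the low folds of this class, part of that follows from choosing islands by their read count. On chromosome 15 (83868801 to 83871400) both stages had an island of the same 2600 bases, with 1511 ChIP and 2681 control reads in round spermatids, a fold of 2.13, and 3452 ChIP and 2404 control reads in spermatocytes, a fold of 2.57. The control density there was 1031 reads per kb in round spermatids and 925 in spermatocytes, against a median of 39.8 over spermatocyte islands of this class of at least 1000 bases. Another on chromosome 15 (72807001 to 72808400) had folds of 1.87 in round spermatids and 1.99 in spermatocytes, and 1 on chromosome 19 (5596601 to 5598000) had 2.18 in round spermatids and 2.16 in spermatocytes. Their control densities were 1761 and 1592 reads per kb in round spermatids and 1410 and 1203 in spermatocytes. The islands on chromosome 9 (32114401 to 32117600) and chromosome 3 (154077001 to 154079400) had folds of 1.98 and 2.01 in round spermatids and 1.54 and 2.20 in spermatocytes, again over dense control reads. The part of such dense positions in the calls was not tested.

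Most wild-type-only islands had a BD1del island near by. The nearest one lay a median of 3200 bases away (quartiles 1400 and 6400), 1186 islands (19.2%) had one within 1 kb, and 5481 (88.9%) within 10 kb. BD1del round spermatid islands were nearer to them, at a median of 4800 bases, than BD1del spermatocyte islands, at 8400, and the BD1del round spermatid list is also the longer of the pair. Close distances were less frequent than for moved islands that met the same rule, of which 26.2% lay within 1 kb and 89.2% within 10 kb. Of the islands of spermatocytes only, 21.9% lay within 1 kb, between the other 2 sets, and 90.0% within 10 kb, above both.

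**Figure D4:**
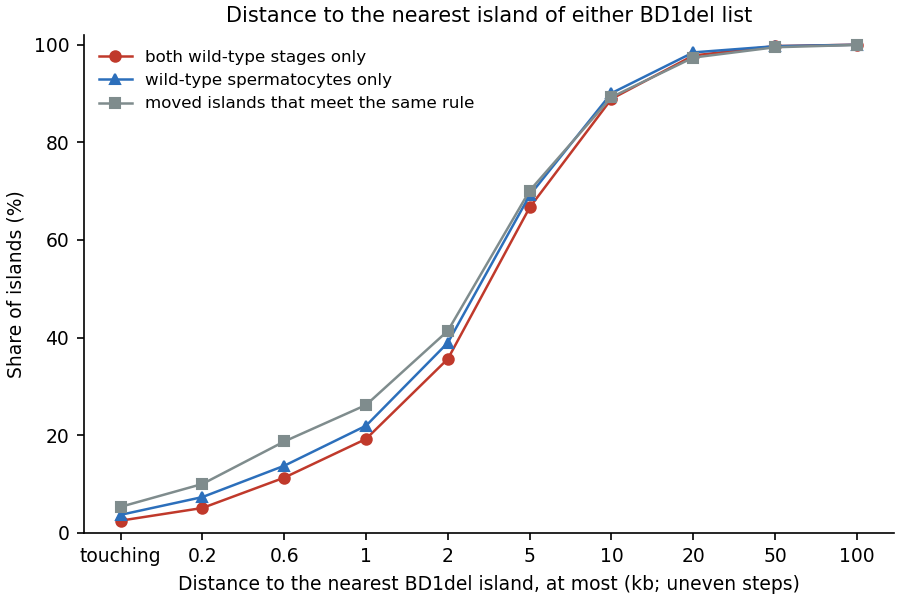
Cumulative share of islands by distance to the nearest island of either BD1del list, for wild-type-only islands (circles), islands of spermatocytes only (triangles) and moved islands that met the rule (squares, pooled over 100 moves); the horizontal steps are uneven. Within 1 kb the shares were 19.2, 21.9 and 26.2%, and within 10 kb they were 88.9, 90.0 and 89.2%, in the same order.

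At the limit of the rule, 154 wild-type-only islands touched a BD1del island without sharing a base, and 697 islands of both wild-type stages were left out for 200 shared bases. Just inside, the median fold was 2.35 in round spermatids and 1.79 in spermatocytes. Just outside, it was 2.43 in round spermatids and 1.89 in spermatocytes. Inside the limit, an island on chromosome 13 (14704801 to 14705800) touched a BD1del round spermatid island and had folds of 4.80 in round spermatids and 17.5 in spermatocytes, where it had 49 ChIP and 5 control reads. Another, on chromosome 3 (152194401 to 152194800), touched a BD1del spermatocyte island and had folds of 6.76 in round spermatids and 10.3 in spermatocytes. Outside it, an island on chromosome 15 (31531401 to 31532000) shared 200 bases with a BD1del spermatocyte island and had a fold of 16.0 in round spermatids, with 86 ChIP and 0 control reads in spermatocytes. On chromosome 17 (67490801 to 67491000) an island that shared 200 bases with a BD1del round spermatid island had a fold of 4.55 in round spermatids, with 29 ChIP and 0 control reads in spermatocytes. On chromosome 8 (47095801 to 47096000) an island that shared 200 bases with a BD1del spermatocyte island had folds of 8.84 in round spermatids and 23.9 in spermatocytes. The islands named at the limit had spermatocyte folds far above these medians. The 154 islands inside tie in distance and the 697 outside tie in shared bases, so neither measure singles out the islands named. The named islands therefore do not stand for the islands on either side of the limit.

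The lists also differed in the folds they hold. Among islands of 1000 to 3200 bases, the 5th percentile of the fold was 2.15 in BD1del round spermatids, 1.90 in BD1del spermatocytes, 1.61 in wild-type round spermatids and 1.36 in wild-type spermatocytes, while the lowest fold was between 1.15 and 1.26 in all 4. Of the 3392 wild-type-only islands of those lengths, 1645 (48.5%) had a round spermatid fold at or under the 5th percentile of BD1del round spermatids. In spermatocytes, 2168 (63.9%) had a fold at or under the 5th percentile of BD1del spermatocytes. Such shares were not counted for other wild-type islands, so they are not read as a trait of this class. All 12413 wild-type spermatocyte islands of those lengths had a median fold of 1.79, below the BD1del spermatocyte percentile of 1.90. Over all lengths, the median round spermatid fold was 2.16 for the 12297 islands of both wild-type stages and 2.15 for the wild-type-only islands. The part of these differences between lists in the absence from the BD1del lists was not tested. The files list called islands only, so the BD1del signal at the wild-type-only islands was not measured here. Whether it was lower there than in wild type was not tested.

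Most wild-type-only islands had no other within 20 kb. Joined over gaps of at most 20 kb they formed 5561 groups, and 5049 islands (81.9%) stood alone. Group and bin counts were not set beside those of other islands, so neither scatter nor clustering is read from them. Only 4 groups held 5 or more islands, 35 islands in all. The median gap between neighbours was 196 kb. Of 2107 bins of 1 Mb, 1900 held at least 1 wild-type-only island, with a mean of 2.93 per bin, and 4 bins held 15 or more. The fullest bin, 41 to 42 Mb on chromosome 6, held 26 wild-type-only islands among 38 spermatocyte islands. Along each chromosome, cut into 5 parts of equal length, the share was 28.9, 29.7, 28.2, 27.0 and 24.6%.

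The largest group lay in that bin, on chromosome 6 (41063801 to 41178000), with 17 wild-type-only islands over 114 kb that covered 15200 bases. Their folds ran between 1.55 and 2.43 in round spermatids (median 1.98) and between 1.44 and 2.83 in spermatocytes (median 1.74), narrow ranges in both stages. Control reads were dense, at a median of 165 per kb. BD1del islands were few but not absent, 7 in round spermatids with a median fold of 6.41 and 4 in spermatocytes with a median fold of 7.83. Islands covered 2.98% of the stretch in BD1del round spermatids, 1.75% in BD1del spermatocytes, 15.6% in wild-type round spermatids and 14.2% in wild-type spermatocytes. Over the whole chromosome they covered 4.86, 5.48, 4.06 and 2.50% in the same order. The stretch was chosen for its wild-type-only islands, so low BD1del and high wild-type coverage there is a description and no finding, as for the next groups. Another group lay a short way off on the same chromosome (40997601 to 41042800), with 6 wild-type-only islands over 45.2 kb. Its median folds were 1.66 in round spermatids and 1.85 in spermatocytes, at 199 control reads per kb. BD1del islands covered 0% of it in round spermatids and 3.10% in spermatocytes, against 14.6% in wild-type round spermatids and 20.4% in wild-type spermatocytes.

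**Figure D5:**
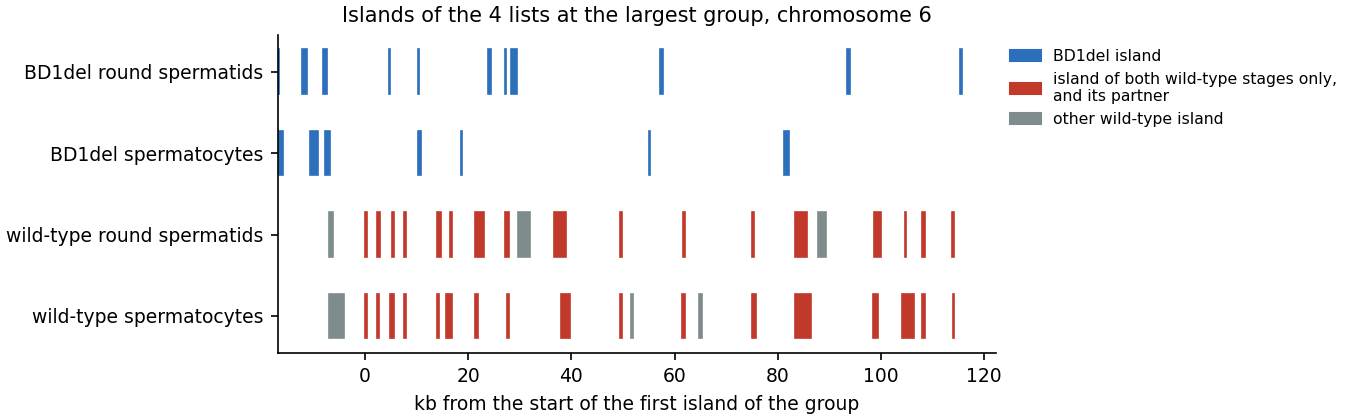
Islands of the 4 lists around the largest group of wild-type-only islands on chromosome 6; the horizontal axis is the distance in kb from the start of its first island, and a thin outline widens each bar slightly so that islands of 200 bases can be seen. Bars in red are the 17 wild-type-only islands and their partners in round spermatids. They lie among sparser BD1del islands (blue) and other wild-type islands (grey). The partner at 27.2 to 28 kb overlaps the BD1del round spermatid island at 27.2 to 27.4 kb, outside the wild-type-only island at 27.6 to 28 kb.

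The group on chromosome 7 (5454801 to 5514400) differed in form. Its 7 wild-type-only islands covered 17600 bases of 59.6 kb, at a control density of 42.6 reads per kb, near the median of 41.8 over all wild-type-only islands. Median folds were 1.89 in round spermatids and 1.59 in spermatocytes. BD1del islands covered 0.671% of the stretch in round spermatids and 2.01% in spermatocytes, against 40.6% in wild-type round spermatids and 29.5% in wild-type spermatocytes. Over the whole of chromosome 7 the coverage was 4.46% in BD1del round spermatids, 4.98% in BD1del spermatocytes, 4.05% in wild-type round spermatids and 2.51% in wild-type spermatocytes.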

How the data were processed

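Per the submitters' processing notes, the lists are SICER island summaries on mm9. The names of the lists give windows of 200 bases and gaps of 600 bases. The sources used here do not give the SICER version, the aligner, read filters or which input served as control. The deposited ChIP and control counts of each island are raw reads. The deposited p-value and FDR set ChIP reads against control reads after scaling to library size, and the deposited fold is the ratio of both. Fold and FDR are the authors' own. They rank or select islands inside a list, and folds of different lists are set side by side for overlapping islands and, as percentiles, for islands of like length.

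Islands were compared by shared bases with Python 3.11.15, numpy 2.4.6, pandas 2.3.3 and scipy 1.17.1, and the overlap counts were tested on simulated lists. Moves were drawn with a fixed seed in steps of 200 bases and kept inside each chromosome's span. An island with several partners takes the summed counts of all of them, and an island without control reads was given 0.25 reads. Fold intervals are exact 95% binomial intervals of the ChIP share, turned into folds. Chromosomes 1, 14, X and Y were not analysed here.

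Named islands, none of them on chromosome 18, are the 6 of highest fold in each stage with at least 10 control reads, the 5 longest, the 5 with most spermatocyte ChIP reads, 3 on each side of the limit, and the 3 groups of most islands. The islands, rules and alternatives were chosen with earlier results of these data known. Genes, gene lists and sequences are not used here, because the gene and sequence tables at hand are of another build. Alternatives were limits on FDR, fold, overlap, distance, control reads and list length, merging, and counting from round spermatids. Leaving out a BD1del list and clearing the partners were added after the data were examined.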

Additional observations from a re-analysis of the deposited data

How the results depend on the processing

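No paired analysis was possible because each group had 1 library, so no 2 replicate numbers pair the groups, and for the same reason no library could be left out within a group. The number of wild-type-only islands was 6168 and stayed within 1.5 times of that under 10 alternatives, between 4149 (each list cut to its 30000 lowest p-values) and 8623 (without the BD1del round spermatid list, added after the data were examined). It was 751 with an FDR of at most 1e-10 in all 4 lists and 618 with that limit in the wild-type lists only. With a fold of at least 2 in all 4 lists it was 1600. Either FDR limit kept 6049 spermatocyte islands, and the fold limit kept 8102. Of the spermatocyte islands kept, 12.4, 10.2 and 19.7% met the rule in the same order, against 27.4% in the main setting. Under the same 3 settings, in the same order, the ratio to the moved count was 6.58, 6.32 and 5.01 in place of 4.39, the share with the higher fold in round spermatids 68.7, 68.4 and 62.1% in place of 76.0%, the median round spermatid fold 3.99, 3.95 and 3.07 in place of 2.15, the median spermatocyte fold 3.27, 3.23 and 2.72 in place of 1.73, the median length 1200, 1200 and 1000 bases in place of 2000, and the median control density 32.5, 31.4 and 34.3 reads per kb in place of 41.8. With lists of 30000 islands, 18.5% of the spermatocyte islands met the rule. The ratio was then 4.09 and the share with the higher fold in round spermatids 85.7%. Median folds were 2.89 in round spermatids and 1.90 in spermatocytes, and the median length was 1800 bases. The ratio was 5.40 where at least 50% of the shorter island had to be shared, with a control density of 42.3 reads per kb, and 4.81 with no BD1del island within 1000 bases. With at least 10 control reads and without the 1% densest in control reads, the median spermatocyte fold was 1.71 and the median length 2200 bases. Ratio and share were computed for 9 alternatives, between 4.09 and 6.58 for the ratio and between 62.1 and 85.7% for the share. Only the number was computed for both settings without a BD1del list, for cleared partners and for counting from round spermatids. The causes of these shifts were not tested, beyond the fewer or stronger islands that each limit keeps by construction. Limits are the 1 library per group, genotype and read set that cannot be told apart, and a BD1del signal below the calling limit, which is not listed.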
